A study of Homo sapiens with 4 samples.

Results

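Amino acids cross the plasma membrane of a cell on carriers of a few solute carrier (SLC) families, and 48 genes of these families were measured among the 32673 genes of the expression table. They were chosen by name, as the protein-coding genes of families SLC1, SLC3, SLC6, SLC7, SLC36, SLC38 and SLC43. The rule uses no expression value, but it was set with earlier results of these data known. TF1 is a human erythroleukaemia line that grows with a cytokine. Infection with a p210 BCR-ABL retrovirus gave TF1-BA cells, which are sensitive to imatinib, an inhibitor of the BCR-ABL kinase, and continuous exposure to imatinib then gave the resistant TF1-BAR cells. The expression level was measured by RNA sequencing in 2 libraries of each line, each from 10000000 cells, to ask how the resistant cells differ from the sensitive ones. The labels give 2 ng/mL GM-CSF for the medium of both lines (the study's methods state another concentration), add 2 μM imatinib for the resistant line, and title the resistant libraries as vector libraries, so that exposure to the drug, a possible control vector and resistance cannot be told apart. Each condition is 1 cell line, and nothing in the labels says that the 2 libraries of a line came from separate cultures, so the p-values measure only the spread between these libraries. In RNA from whole cultures, fewer cells expressing a gene and less RNA per cell cannot be told apart.

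The libraries held between 15465497 and 18042299 fragments. The levels are given as FPKM, the fragments of a gene scaled by its length and by the reads mapped in the library. For 14306 genes this length was that of all annotated exons, whether used in these cells or not. Levels of different genes can therefore be set side by side only roughly. All 10 markers of the cell line (CD34, CD33, KIT, GATA1, GATA2, TAL1, KLF1, CSF2RA, CSF2RB and ITGA4) were detected in each library, at 6.64 to 241 FPKM. Their summed level was 524 and 511 FPKM in the TF1-BA cells and 637 and 667 FPKM in the TF1-BAR cells. At an adjusted p under 0.05, 5 of the 10 were higher and 0 lower, beside 16.3% and 10.5% of all genes. The others were not called, with CSF2RB and ITGA4 higher by value and GATA1, KLF1 and CSF2RA lower, each without overlap. Of 11 markers of other cells, summing to 55.3 and 58.5 FPKM against 46.3 and 50.1 FPKM, CD3D was at 19.21 and 20.67 FPKM in the TF1-BA cells and 5.737 and 6.362 FPKM in the TF1-BAR cells, and was called lower. CD79A, at 1.844 and 2.194 against 3.546 and 3.146 FPKM, and KRT8, at 8.82 and 9.942 against 12.23 and 12.81 FPKM, were called higher. PECAM1 (23.27 to 25.7 FPKM) was not called. CD3E, CD8A, COL1A1, COL1A2, EPCAM and ALB were below 0.5 FPKM in each library, and 0 of the 11 were at 0 in all 4 libraries. The part of these marker differences in the results was not tested.

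Amino acid carriers are named after transport systems that were first told apart by their substrates. System L carries large neutral amino acids such as leucine, system A carries small neutral ones together with sodium, system y+ carries arginine and lysine, and system xc- takes up cystine in exchange for glutamate. Several SLC7 proteins are light chains that reach the cell surface only when joined to a heavy chain, SLC3A2 (also called CD98 or 4F2hc) or SLC3A1. Leukaemia cells depend on such uptake for protein synthesis, for glutathione and for the activity of the growth-controlling kinase complex mTORC1, and cells short of amino acids raise many carriers through the transcription factor ATF4. The name rule also takes in genes with other roles, among them the creatine carrier SLC6A8, the taurine carrier SLC6A6, the serotonin carrier SLC6A4, the nucleobase carrier SLC43A3 and the lysosomal SLC38A7 and SLC38A9, so not every member carries amino acids across the plasma membrane.

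The 9 transporters that differed between the lines had their genes on 7 chromosomes, and 4 promoters of genes described below are shown. No relation of promoter sequence to expression was tested. They belong to the light chain pair SLC7A8 and SLC7A5, of which the former was higher in the TF1-BAR cells and the latter was not called, to SLC7A6, the other light chain that was higher, and to SLC6A19, which had the largest difference. Each sequence gives the 250 bases before the RefSeq start of the gene on GRCh38.p14, 5′ to 3′ on the strand of the gene. The places are chr14:23155321-23155570 on the minus strand for SLC7A8, chr16:87869508-87869757 on the minus strand for SLC7A5, chr16:68264276-68264525 on the plus strand for SLC7A6 and chr5:1201345-1201594 on the plus strand for SLC6A19. Capitals mark matches to CACGTG (the E-box) or to TGACNNNGC (the core of the antioxidant response element).
SLC7A8: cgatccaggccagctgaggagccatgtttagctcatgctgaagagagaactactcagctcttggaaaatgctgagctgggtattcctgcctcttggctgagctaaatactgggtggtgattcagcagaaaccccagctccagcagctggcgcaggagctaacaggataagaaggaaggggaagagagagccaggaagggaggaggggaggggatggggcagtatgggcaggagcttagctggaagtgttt
SLC7A5: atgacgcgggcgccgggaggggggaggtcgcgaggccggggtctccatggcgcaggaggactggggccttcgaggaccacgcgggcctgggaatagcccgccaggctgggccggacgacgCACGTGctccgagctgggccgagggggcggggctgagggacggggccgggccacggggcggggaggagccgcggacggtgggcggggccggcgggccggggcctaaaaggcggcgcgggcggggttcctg
SLC7A6: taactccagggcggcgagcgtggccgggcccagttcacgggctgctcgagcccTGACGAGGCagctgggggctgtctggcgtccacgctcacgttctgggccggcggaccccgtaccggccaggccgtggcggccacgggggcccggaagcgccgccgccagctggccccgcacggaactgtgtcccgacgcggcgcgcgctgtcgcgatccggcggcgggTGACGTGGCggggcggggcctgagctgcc
SLC6A19: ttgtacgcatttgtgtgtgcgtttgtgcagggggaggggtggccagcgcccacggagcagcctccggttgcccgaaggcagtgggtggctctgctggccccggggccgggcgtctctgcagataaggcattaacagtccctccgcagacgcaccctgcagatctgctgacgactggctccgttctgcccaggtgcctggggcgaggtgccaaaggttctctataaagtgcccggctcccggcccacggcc

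The promoter of SLC7A8 held 2 CpG dinucleotides in these 250 bases at a GC content of 54.8%, whereas that of SLC7A5 held 34 at 79.6% and that of SLC7A6 held 37 at 77.6%. The RefSeq start of SLC7A8 lies inside the interval that the files give for the gene (chr14:23125295-23183674). SLC7A5 had its E-box at bases 130 to 125 before the start, and SLC7A6 had 2 matches to the antioxidant element, TGACGAGGC at bases 197 to 189 and TGACGTGGC at bases 29 to 21. In SLC7A8 and SLC6A19 there was no match in this window. A RefSeq promoter window of 300 bases (250 before to 50 after the start) was at hand for 37 of the 48 members and 19 of the 23 members tested. On either strand, with overlaps between motifs allowed, TGATGNAA, the amino acid response element bound by ATF4 with a C/EBP partner, was in 4 of the 37 windows (SLC1A3, SLC3A2, SLC7A1 and SLC38A1) and in 3.62% of 35116 windows. TGACNNNGC was in 5 of 37 (SLC3A2, SLC7A1, SLC7A5, SLC7A6 and SLC7A7) and in 13.3% of the windows, and CACGTG was in 6 of 37 (SLC1A7, SLC6A16, SLC7A5, SLC38A5, SLC38A7 and SLC43A1) and in 7.26%. These are matches of letters and do not show binding. The promoters of SLC7A11, SLC6A6, SLC38A3 and SLC43A3 are not shown.

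Most of the transporter mRNA came from few genes. SLC38A2, the main system A carrier (130 FPKM on average), and SLC1A5, the glutamine carrier ASCT2 (107.6 FPKM), led the list, followed by the heavy chain SLC3A2 (52.38 FPKM) and its leucine-carrying light chain SLC7A5 or LAT1 (51.62 FPKM). The creatine carrier SLC6A8 (39.98 FPKM) and the arginine and lysine carrier SLC7A1 or CAT1 (39.17 FPKM) came next, and these 6 genes made up 77.6% of the summed FPKM of the 48. In this order SLC3A2 and SLC7A5 overlapped across the libraries, as did SLC6A8 and SLC7A1. The summed level of the 48 genes was 569 and 568 FPKM in the TF1-BA cells and 510 and 523 FPKM in the TF1-BAR cells, with no overlap. The FPKM of all genes summed to 304529 and 304178 against 291217 and 289293, so the transporters made up 0.187% and 0.187% of it in the TF1-BA cells against 0.175% and 0.181% in the TF1-BAR cells.

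23 of the 48 had a mean of at least 0.5 FPKM and were tested. In the TF1-BAR cells 2 of them were higher at an adjusted p under 0.05, the light chains SLC7A8 and SLC7A6, and 7 were lower: SLC6A19, SLC38A3, SLC38A6, SLC7A11, SLC6A6, SLC38A1 and SLC43A3. That is 39.1% of the 23, against 26.9% of all 15519 genes tested (limma on log2(FPKM + 0.5), Benjamini-Hochberg adjustment over all of them). By direction, 8.7% of the transporters were higher and 30.4% lower, beside 16.3% and 10.5% of all genes. The split was 3 higher and 4 lower after rescaling to TPM, 1 and 8 after quantile normalization, and 1 and 11 after upper-quartile scaling. The median log2 fold change of the 23 was −0.18, with 15 below 0, while the median was 0.07 over all genes, 0.04 over protein-coding genes and 0.05 over the 181 tested genes of other SLC families, of which 34 were higher and 20 lower. The groups did not overlap for 20 of the 23, higher for 6 and lower for 14, where 69.3% of all genes did not overlap. By direction these were 26.1% and 60.9% of the transporters, beside 40.9% and 28.4% of all genes.

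Differentially expressed in the sense of the study, past a log2 fold change of 1 in size as well, were 0 transporters that were higher and 1 that was lower, SLC6A19. Over all genes these shares were 3.05% and 1.69%. The count of 0 higher depends on the 0.5 FPKM added before the logarithm, since SLC7A8 was at 0.95 with it, at 1.01 with 0.1 FPKM added, and at 1.02 after rescaling to TPM and in limma voom on the recovered fragments, where it was past both thresholds. SLC6A19 passed the filter through the TF1-BA cells, since its TF1-BAR values were under 0.5 FPKM, while SLC7A7 and SLC6A13, with higher values in the TF1-BAR cells, stayed under it, so the counts by direction depend on the filter. The calls rest on both TF1-BA libraries. Without TF1-BA replicate 1, 144 genes were called in the whole table, and without TF1-BA replicate 2, 42 were, with 0 transporters among them each time. Without TF1-BAR replicate 1 there were 1 higher and 2 lower transporters, and without TF1-BAR replicate 2 there were 1 and 1. The direction of each of the 9 held in all alternatives run.

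**Figure D1:**
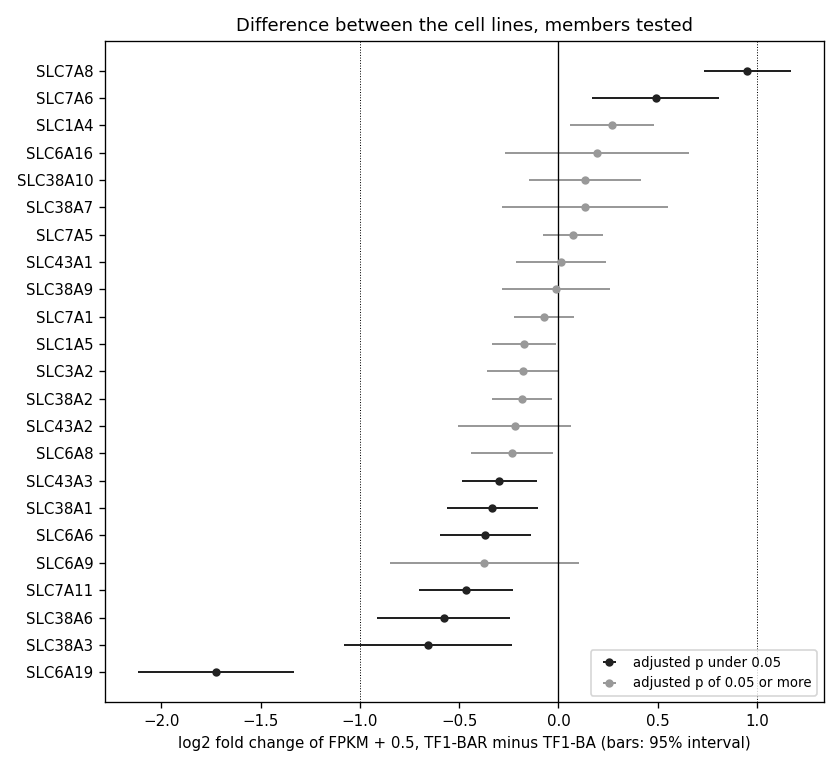
Log2 fold change of FPKM + 0.5 between the lines (TF1-BAR minus TF1-BA) for the 23 members tested, with the 95% interval of limma. Dark points have an adjusted p under 0.05, dotted lines mark a log2 fold change of 1 in size. SLC7A8 (0.95) and SLC6A19 (−1.73) stand at the ends.

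Among the light chains, SLC7A8 or LAT2, which carries large and small neutral amino acids with SLC3A2, was at 4.746 and 4.274 FPKM in the TF1-BA libraries and at 9.139 and 9.221 FPKM in the TF1-BAR libraries. Both TF1-BAR values lay far above both TF1-BA values, on 396 to 888 fragments per library. The means were 4.51 ± 0.334 FPKM and 9.18 ± 0.0579 FPKM (SD, n = 2 each), which is 2.04-fold higher, and the log2 fold change was 0.95 (SE 0.0856, limma adjusted p = 0.00567). The adjusted p ranged from 6.28e-06 to 0.0613 over the 17 alternatives, and it was 0.0552 without TF1-BA replicate 1 and 0.0613 without TF1-BA replicate 2. Around SLC7A8, within 500 kb on each side, 7 of the 26 genes tested were higher and 0 lower, beside 16.3% and 10.5% of all genes. Their median log2 fold change was 0.18.

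The closest relative in function, SLC7A5, was at 51.28 and 49.36 FPKM in the TF1-BA cells and 52.41 and 53.44 FPKM in the TF1-BAR cells. Its log2 fold change was 0.07 with a 95% interval of −0.08 to 0.22 (limma adjusted p = 0.397), and it turned to −0.02 with upper-quartile scaling. So SLC7A5 mRNA was 10.8 and 11.5 times that of SLC7A8 in the TF1-BA cells against 5.74 and 5.8 times in the TF1-BAR cells, a ratio chosen after the values were seen. Part of the SLC7A5 reads may be shared with its partial copy SLC7A5P1, which was listed at 2.477 to 3.974 FPKM.

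SLC3A2 itself was at 54.82 and 56.52 FPKM in the TF1-BA cells and 46.9 and 51.3 FPKM in the TF1-BAR cells. The groups did not overlap, but the log2 fold change of −0.18 had a 95% interval of −0.36 to 0.0003 and was not called (limma adjusted p = 0.119). SLC3A2 had an adjusted p under 0.05 in 1 of 17 alternatives. The summed FPKM of its light chains was 73.1 and 70.2 against 75.7 and 75.3 FPKM. SLC7A8 made up 6.49% and 6.09% of the light chain FPKM in the TF1-BA libraries against 12.1% and 12.2% in the TF1-BAR libraries, SLC7A11 made up 21.7% and 21.7% against 15.7% and 13.7%, and SLC7A5 stayed between 69.3% and 71% in each library. These shares, also chosen after the values were seen, are of mRNA and not of assembled carriers.

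**Figure D2:**
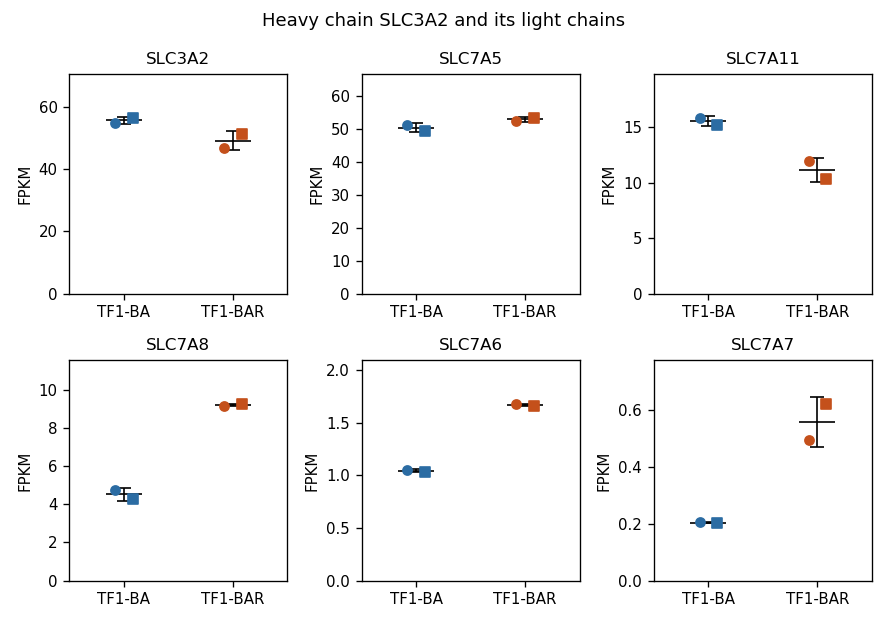
FPKM of the heavy chain SLC3A2 and 5 of its light chains in each library, with the mean (line) and SD (bars) of the 2 libraries of a line; each panel has its own axis from 0. SLC7A8, SLC7A6 and SLC7A7 are higher in both TF1-BAR libraries (orange), SLC7A11 is lower, and SLC7A5 lies at 49.36 to 53.44 FPKM.

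SLC7A6, the y+L light chain that exchanges arginine and lysine for neutral amino acids, was at 1.052 and 1.031 FPKM in the TF1-BA cells and 1.672 and 1.656 FPKM in the TF1-BAR cells. It was 1.6-fold higher, with a log2 fold change of 0.49 (SE 0.125, limma adjusted p = 0.0449), on 121 to 202 fragments per library. Of its annotated exon length, 44.4% is shared with SLC7A6OS on the opposite strand, which had 0.8692 and 1.237 FPKM against 1.359 and 1.808 FPKM and a log2 fold change of 0.43 (limma adjusted p = 0.165). The library kit does not mark strand, so the reads of these genes cannot be told apart there. Leaving out any 1 library ended the call of SLC7A6 (adjusted p 0.102 to 0.18).

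The other y+L light chain, SLC7A7, which is mutated in lysinuric protein intolerance, was too low for the test. Its levels were 0.2052 and 0.2016 FPKM in the TF1-BA cells and 0.4946 and 0.6184 FPKM in the TF1-BAR cells, which rest on 19, 16, 40 and 51 fragments. In limma voom on the fragments recovered from the FPKM, for genes with a mean of at least 10 fragments (an alternative chosen after seeing the data), its log2 fold change was 1.42 (SE 0.303, adjusted p = 0.00297). This alternative called 39.7% of its 15832 genes (24.2% higher and 15.5% lower), and 15 of the 29 transporters it tested, 5 higher and 10 lower. The 5 include SLC6A13, which passed this filter only through the TF1-BAR cells. SLC7A7 lies 295 kb from SLC7A8 on chromosome 14 with 15 protein-coding genes between them. Of the 31 genes tested within 500 kb of SLC7A7, 12 were higher and 0 lower, beside 16.3% and 10.5% of all genes in the test on log2(FPKM + 0.5). This region overlaps that around SLC7A8, so part of the neighbours are counted in both.

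SLC7A11 or xCT, the cystine carrier of system xc-, was at 15.84 and 15.22 FPKM in the TF1-BA libraries and 11.91 and 10.34 FPKM in the TF1-BAR libraries. It was 1.4-fold lower in the TF1-BAR cells, with a log2 fold change of −0.47 (SE 0.0919, limma adjusted p = 0.0251), on 1603 to 2756 fragments. The antisense gene SLC7A11-AS1, which overlaps 8.97% of the exon length of SLC7A11 on the opposite strand, was at 0.6477 and 0.6822 against 0.3501 and 0.4645 FPKM. The adjusted p of SLC7A11 was 0.0672 without TF1-BAR replicate 2, 0.159 without TF1-BA replicate 1 and 0.134 without TF1-BA replicate 2. SLC7A1, the main carrier of arginine and lysine, was at 40.49 and 39.81 against 37.7 and 38.69 FPKM and was not called, with a log2 fold change of −0.07 and a 95% interval of −0.22 to 0.08.

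The 2 carriers of system ASC, which exchange alanine, serine, cysteine and, for SLC1A5, glutamine, lay on opposite sides of 0 without passing the test. SLC1A5 was at 117.0 and 111.2 FPKM in the TF1-BA cells and 98.04 and 104.1 FPKM in the TF1-BAR cells, with a log2 fold change of −0.17 (95% interval −0.34 to −0.01, limma adjusted p = 0.104). SLC1A4 was at 9.537 and 9.644 against 11.06 and 12.3 FPKM, with a log2 fold change of 0.27 (95% interval 0.06 to 0.48, limma adjusted p = 0.0694), and it had an adjusted p under 0.05 in 4 of 17 alternatives. For SLC1A5 this was 1 of 17. The groups did not overlap for either gene. As a description, SLC1A5 was 12.3 and 11.5 times SLC1A4 in the TF1-BA libraries against 8.86 and 8.47 times in the TF1-BAR libraries. The glutamate carriers SLC1A1, SLC1A2, SLC1A3 and SLC1A7 summed to at most 0.529 FPKM in any library.

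In the SLC38 family of sodium-coupled neutral carriers, the glutamine and alanine carrier SLC38A1 was at 19.34 and 17.63 FPKM in the TF1-BA cells and 15.33 and 13.83 FPKM in the TF1-BAR cells. It was lower, but only just called, with a log2 fold change of −0.33 (SE 0.0885, limma adjusted p = 0.0499), and leaving out any 1 library ended the call (adjusted p 0.0597 to 0.265). SLC38A2, its neighbour 88.2 kb away on chromosome 12 and the member that amino acid shortage is best known to raise, was at 136.3 and 140.4 against 124.8 and 118.6 FPKM. Its log2 fold change of −0.18 (95% interval −0.33 to −0.03, limma adjusted p = 0.0744) was not called. SLC38A2 had an adjusted p under 0.05 in 4 of 17 alternatives. Summed over system A, the level was 156 and 158 FPKM against 140 and 132 FPKM.

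SLC38A3, a system N carrier of glutamine and histidine, was at 1.299 and 1.173 FPKM against 0.6715 and 0.5331 FPKM, on 93, 72, 42 and 34 fragments. Its log2 fold change was −0.66 (SE 0.165, limma adjusted p = 0.0434), which the added 0.5 FPKM makes smaller; on the recovered fragments it was −1.04. SLC38A6 was at 3.392 and 3.92 FPKM in the TF1-BA libraries and 2.502 and 2.067 FPKM in the TF1-BAR libraries, with a log2 fold change of −0.58 (SE 0.129, limma adjusted p = 0.0328). The gene shares 1.03% of its exon length with TRMT5 on the opposite strand, which was lower as well (−0.41, limma adjusted p = 0.0273). Leaving out any 1 library ended both calls, with an adjusted p of 0.0634 to 0.181 for SLC38A3 and 0.0517 to 0.183 for SLC38A6.

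SLC38A10, whose role is less well known, was at 9.704 and 10.27 against 10.02 and 12.09 FPKM, with overlapping groups (log2 fold change 0.14, 95% interval −0.15 to 0.42). SLC38A9, the lysosomal arginine sensor that signals to mTORC1, was among the tested members of lower level that were not called, which were 5 in all with SLC38A7, SLC6A9, SLC6A16 and SLC43A2. Their log2 fold changes ran from −0.37 to 0.20.

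SLC6A19 or B0AT1, the sodium-coupled carrier of neutral amino acids best known from kidney and gut and mutated in Hartnup disorder, had the largest difference. It was at 2.269 and 2.047 FPKM in the TF1-BA libraries and 0.2766 and 0.3302 FPKM in the TF1-BAR libraries, on 216, 167, 23 and 28 fragments. Both TF1-BAR libraries lay far below both TF1-BA libraries, and the means of 2.158 ± 0.157 and 0.3034 ± 0.0379 FPKM (SD, n = 2 each) differ 7.11-fold. The log2 fold change on the log2(FPKM + 0.5) scale was −1.73 (SE 0.153, limma adjusted p = 0.00565), and on the recovered fragments it was −2.81. SLC6A19 passed the 0.5 FPKM filter only through the TF1-BA cells, so its call is given as a description. In the fit without a filter its limma adjusted p was 0.0435. Over the 17 alternatives its adjusted p was 2.36e-06 to 0.0574, and it was 0.0574 without TF1-BA replicate 1 and 0.0565 without TF1-BA replicate 2. Of the 12 genes tested within 500 kb of it on chromosome 5, 5 were higher in the TF1-BAR cells and 0 lower, beside 16.3% and 10.5% of all genes. Their median log2 fold change was 0.37. CLTRN, the membrane partner that brings SLC6A19 to the surface in kidney, was at 0.5629 to 0.7491 FPKM with overlapping groups.

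The taurine carrier SLC6A6 was at 11.85 and 13.43 FPKM in the TF1-BA cells and 9.478 and 9.836 FPKM in the TF1-BAR cells, and was lower with a log2 fold change of −0.37 (SE 0.0887, limma adjusted p = 0.0391). The creatine carrier SLC6A8 was at 42.52 and 43.91 against 34.53 and 38.95 FPKM, with a log2 fold change of −0.23 that was not called (95% interval −0.44 to −0.03, limma adjusted p = 0.0906). SLC6A8 had an adjusted p under 0.05 in 4 of 17 alternatives. Its near-identical copy SLC6A10P was listed at 0 to 2 fragments. Leaving out any 1 library ended the call of SLC6A6 (adjusted p 0.107 to 0.224).

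All 3 SLC43 genes were tested. SLC43A3 was at 21.38 and 20.31 FPKM in the TF1-BA cells and 17.43 and 16.29 FPKM in the TF1-BAR cells, and was lower with a log2 fold change of −0.30 (SE 0.073, limma adjusted p = 0.0408); leaving out any 1 library ended the call (adjusted p 0.0525 to 0.244). Its neighbour SLC43A1 or LAT3, a system L carrier 57 kb away on chromosome 11, was at 17.32 and 18.2 against 16.8 and 19.08 FPKM with overlapping groups, and its log2 fold change of 0.01 (95% interval −0.21 to 0.24) changed sign with the scaling. Summed over system L, with SLC7A5, SLC7A8, SLC43A1 and SLC43A2, the level was 75.3 and 73.9 FPKM in the TF1-BA cells and 80 and 83.4 FPKM in the TF1-BAR cells. System y+L, SLC7A6 and SLC7A7, summed to 1.26 and 1.23 against 2.17 and 2.27 FPKM. The sums of systems A, N, ASC, xc- and y+ and of the heavy chains were lower in each TF1-BAR library than in either library of TF1-BA. As a share of the FPKM of all genes (a scaling chosen after seeing the data), L and y+L remained higher and A, N, xc- and the heavy chains remained lower without overlap, while the groups overlapped for ASC (0.0415% and 0.0397% against 0.0375% and 0.0403%) and y+ (0.0134% and 0.0132% against 0.0131% and 0.0135%). With 2 libraries against 2, a two-sided exact permutation test of such a sum cannot go below p = 0.333, so these sums are given without a test.

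25 members lay under the mean of 0.5 FPKM. Of these, 2 (SLC7A2 and SLC36A4) were listed at 0 in all 4 libraries, and 9 had at most 3 fragments in any library. The other 14 reached more than 3 fragments in some library and at most 0.618 FPKM, the value of SLC7A7. SLC6A13, a carrier of GABA and taurine, was at 6 and 8 fragments in the TF1-BA cells against 20 and 23 in the TF1-BAR cells. It entered limma voom at a mean of at least 10 fragments only through its TF1-BAR libraries, so its log2 fold change there, 1.65 (SE 0.412), is given as a description. SLC36A1, a proton-coupled carrier of the lysosome and plasma membrane, stood just under the filter at a mean of 0.4945 FPKM with overlapping groups. SLC3A1, the heavy chain of the kidney cystine carrier, had 0 to 4 fragments per library. Fragment numbers cover counting error only.

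**Figure D3:**
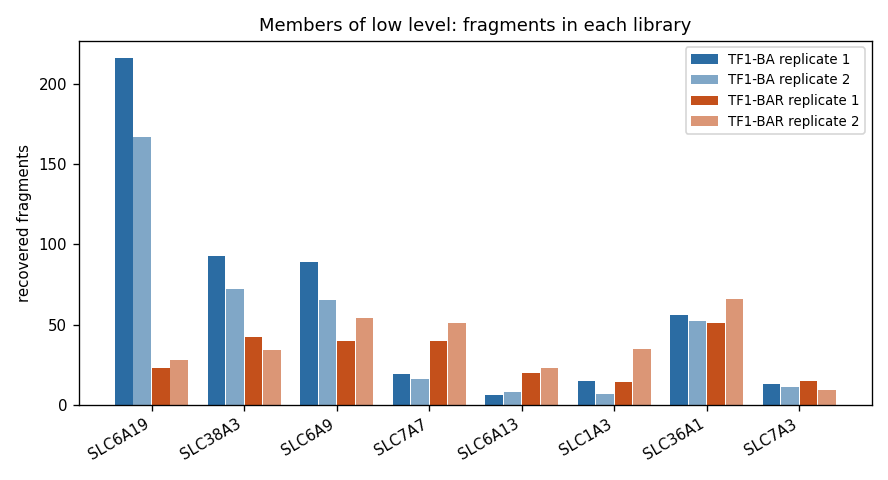
Recovered fragments in each library for 8 members of low level. TF1-BA libraries are blue and TF1-BAR libraries orange. SLC6A19 falls from 216 and 167 to 23 and 28 fragments, and SLC7A7 and SLC6A13 are higher in both TF1-BAR libraries.

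Other genes of amino acid supply, in lists fixed for the pathway, numbered 83 tested, of which 1 was higher and 21 were lower at an adjusted p under 0.05, 26.5% in all, near the 26.9% of all genes, at a median log2 fold change of −0.03. The background for each list is the 16.3% higher and 10.5% lower of all genes. The lists share SESN2, which is counted once in this sum. In the ATF4 axis, the signalling from amino acid shortage and other stress to ATF4 and its targets, 1 of the 19 genes tested was higher (5.26%, against 16.3% of all genes) and 9 were lower (47.4%, against 10.5%). The median log2 fold change of the 19 was −0.05, so the lower calls do not describe the whole list. DDIT3, the stress transcription factor CHOP, was at 41.59 and 45.92 FPKM in the TF1-BA cells and 10.92 and 9.926 FPKM in the TF1-BAR cells, with a log2 fold change of −2.02 (SE 0.0868, limma adjusted p = 0.00174). DDIT4, which restrains mTORC1, was at 236.8 and 224.5 against 99.73 and 107.3 FPKM (−1.15, limma adjusted p = 0.00307). ASNS, which makes asparagine, was at 179.9 and 185.6 against 102.9 and 85.63 FPKM (−0.96, limma adjusted p = 0.00705).

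CHAC1, which breaks down glutathione, was at 56.07 and 48.54 against 29.9 and 30.41 FPKM (−0.78), and the transcription factor ATF5 was at 6.905 and 8.011 against 4.317 and 3.875 FPKM (−0.79). The kinase EIF2AK1, which responds to lack of heme, was the gene that was higher, at 38.08 and 38.69 against 51.98 and 59.06 FPKM (0.52, limma adjusted p = 0.0144). ATF4 itself, named after its values were seen, was at 291.5 and 298.8 against 291.5 and 277 FPKM and was not called. Its control is known to be largely translational, which FPKM does not measure.

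Among 17 tested genes for the use of imported amino acids, 0 were higher and 8 were lower (47.1%, against 10.5% of all genes), at a median log2 fold change of −0.37. GCLM, a subunit of the enzyme that joins cysteine to glutamate for glutathione, was at 16.19 and 15.72 against 9.95 and 8.058 FPKM (−0.80, limma adjusted p = 0.0122). The proline synthesis gene ALDH18A1 (−0.70), the glutamate dehydrogenase GLUD1 (−0.57) and the aspartate aminotransferase GOT1 (−0.87) were lower too. These 3 genes and DDIT4 lie on chromosome 10, where the median log2 fold change of 593 genes tested was −0.35, with 264 lower and 26 higher. On chromosome 20 the median was 0.39. None of the 23 tested transporters lies on either chromosome, and the median of the chromosomes that hold them was between −0.01 and 0.12.

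Of 33 tested genes that signal amino acids to mTORC1, 0 were higher and 3 were lower (9.09%, near the 10.5% of all genes), at a median of 0.01: the GTPase RRAGA (−0.56), NPRL3 of the inhibiting GATOR1 complex (−0.44) and the leucine sensor SESN2 (−0.42). Of 11 tested genes in the list of other amino acid and peptide carriers, which also holds SLC7A6OS, 0 were higher and 2 were lower (18.2%, against 10.5% of all genes), the lysosomal sialic acid carrier SLC17A5 (−0.65) and LAPTM4A (−0.35). Of the 4 tested partner proteins of carriers (BSG, CLTRN, NEDD4L and SLC16A1) 0 were called. Without TF1-BA replicate 1, 2 genes of amino acid supply were called, without TF1-BA replicate 2 it was 1, and without TF1-BAR replicate 2 it was 8, in place of 22.

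**Figure D4:**
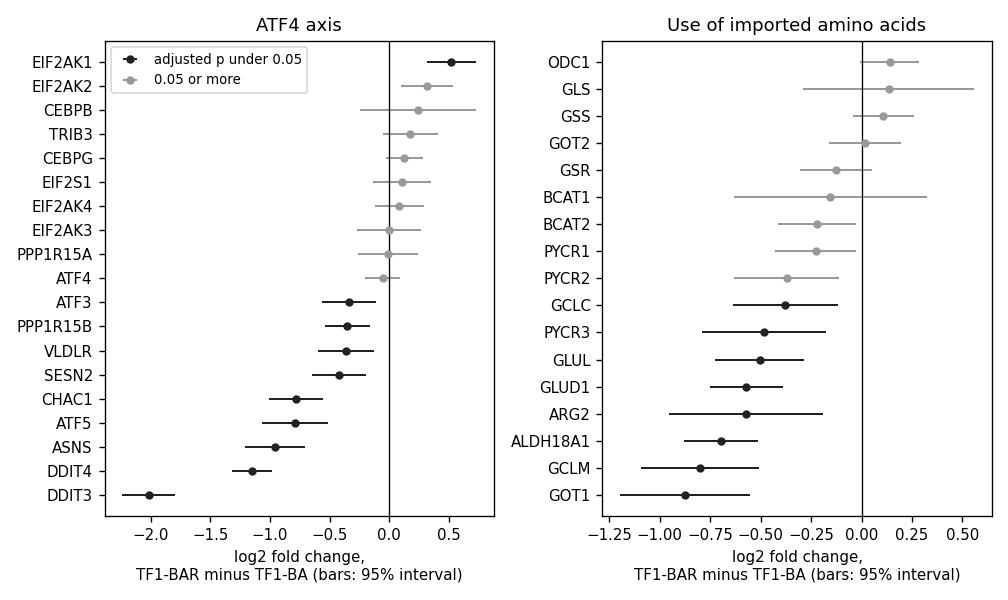
Log2 fold change of FPKM + 0.5 (TF1-BAR minus TF1-BA) with the 95% interval of limma, for the tested genes of the ATF4 axis (left) and of the use of imported amino acids (right). Dark points have an adjusted p under 0.05; the axes of the panels differ. DDIT3 (−2.02) is the lowest on the left and GOT1 (−0.87) on the right.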

How the data were processed

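RNA of TF1-BA and TF1-BAR cells was sequenced in 2 libraries per line. Per the study's methods and the submitters' processing notes, the authors mapped 150-bp paired-end reads to GRCh38 with TopHat2 2.0.13 and ran Cufflinks and Cuffdiff 2.2.0. The values the authors deposited are FPKM per gene and library. The authors' DESeq2 test needs counts, so limma 3.58.1 in R 4.3.3 (lmFit, eBayes with a trend) was used on log2(FPKM + 0.5), for genes with a mean of at least 0.5 FPKM, with Benjamini-Hochberg adjustment over the 15519 genes tested. The script was tested on simulated data.

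Fragments behind the FPKM were recovered by finding the library size and gene length that turn each value into a number whole within 0.002 fragments. This held for all 30853 genes above 0, 14306 of them at the GENCODE 44 exon length and 16547 at a length found by search. Of 300 genes drawn from those at the GENCODE length, 0 were whole with wrong library sizes. Genes at a searched length were not checked in this way, and the search leaves them more freedom. The library sizes were 18042299 and 15465497 fragments (TF1-BA) and 15761642 and 16074303 (TF1-BAR). The 2 libraries of a line differed beyond sampling noise (chi-square per degree of freedom 4.195 and 7.032) and so were not taken as repeat deposits of 1 library; this does not show that they came from separate cultures. Gene positions are those of the files, and 42 of the 48 members share their start or end with GENCODE 44.

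The members, gene lists and tests were chosen with earlier results of these data known. Named by rule were members with an adjusted p under 0.05, other tested members with a mean of at least 5 FPKM or in a heteromer, and, from each list, the genes past both thresholds with up to 4 more of the smallest adjusted p. Other genes named were chosen after their values were seen. The alternatives were other pseudocounts, filters, scalings and forms of eBayes, protein-coding genes only, limma voom on the recovered fragments, the replicate number as a block, and leaving out each library. 2 further alternatives, limma voom on genes with a mean of at least 10 fragments and sums of transport systems as a share of the FPKM of all genes, were chosen after seeing the data. Promoter sequences are from RefSeq on GRCh38.p14. 1 member and 1 marker are not reported here.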

Additional observations from a re-analysis of the deposited data

How the results depend on the processing

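Of the 9 transporters called, SLC7A8 and SLC6A19 kept an adjusted p under 0.05 in 15 of 17 alternatives and the other 7 in 9 to 12, and the direction of each held in all that were run; SLC38A3 could not be tested at a mean of at least 1 FPKM. SLC6A19 passed the 0.5 FPKM filter only through the TF1-BA cells. Counts given here are of transporters at an adjusted p under 0.05 unless stated, against 2 higher and 7 lower. Lower transporters numbered 3 with eBayes without the trend, 4 after rescaling to TPM, 11 after upper-quartile scaling and 1 without a filter. Higher ones numbered 1 after quantile normalization, after upper-quartile scaling and without a filter, and 5 with limma voom at a mean of at least 10 fragments. Differentially expressed transporters numbered 1 higher with a pseudocount of 0.1 FPKM, after rescaling to TPM and with limma voom, which also gave 2 lower, and 3 higher and 2 lower with limma voom at a mean of at least 10 fragments, where SLC6A13, 1 of the 3, passed the filter only through the TF1-BAR cells. The median log2 fold change, −0.18, was −0.11 after rescaling to TPM, −0.27 after upper-quartile scaling, −0.0149 with limma voom at a mean of at least 10 fragments (29 transporters) and 0.00569 without a filter (48 transporters), where many more genes near 0 enter. The median over all genes tested, 0.07, was 0.125, −0.0132, 0.0842 and 0.0294 in these settings, in the same order. Without a filter 5 genes of amino acid supply were called, against 22. SLC43A1 changed sign, to −0.0142 after quantile normalization, −0.0789 after upper-quartile scaling, −0.0231 without TF1-BA replicate 1 and −0.0779 without TF1-BAR replicate 2 (0.101 without TF1-BAR replicate 1), and SLC7A5 to −0.0195 after upper-quartile scaling. Leaving out each library in turn gave 0 to 1 higher, 0 to 2 lower, 0 to 1 differentially expressed and lower, a median of −0.217 to −0.131 and 1 to 18 genes of amino acid supply; a lone library is then assumed to vary like those of the other line. With the replicate number as a block, 1 transporter was higher and 5 were lower, with 6 of the 9 calls kept; the deviations of same-numbered libraries had a correlation of 0.0646, so the libraries share only a number. Apart from the smaller number of libraries or the other genes that enter, the cause of these changes was not tested. Members under about 10 fragments per library are limited by depth.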
